A study of Mus musculus with 6 samples.

Results

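Podocan (Podn) and 7 other small leucine-rich proteoglycans were followed at the gene and transcript level in the epididymal white fat pad of male mice kept in the cold and of control mice. The 8 genes were Podn, Dcn, Bgn, Aspn, Lum, Fmod, Prelp and Ogn. They were taken by gene symbol from the GENCODE M21 annotation of GRCm38, and make up 8 of the 23492 genes and 22 of the 61729 annotated transcripts with at least 1 read. Podn was chosen by its measured gene-level difference between cold and control mice in these same libraries. Its gene and transcript values in that comparison are therefore a description and carry no test, and the other 7 genes were added by family with results of these data already known.

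All mice were males of the inbred strain C57BL/6N, wild type and 20 weeks old. The cold group (cold; mice 7, 12 and 16) was kept at 4 °C for 24 h, each mouse in a cage of its own, and the control group (ctrl; mice 5, 6 and 10) is set apart by the label ctrl. The protocol text with 4 °C and single cages stands on the records of all 6 mice, the control mice included, beside a general housing temperature of 22 °C to 24 °C. The groups here follow the treatment label, and no separate text describes the temperature or the caging of the control mice. Poly-A RNA was read as full cDNA molecules without amplification on a nanopore device, and 726283 to 1341592 reads per mouse were assigned to transcripts. Gene levels are CPM, the reads of a gene per 1000000 reads assigned to genes, and 1 read was worth 0.747 to 1.38 CPM, depending on the mouse. For single transcripts the CPM is relative to all reads of the mouse. Nothing in the labels says more on the origin of the mice, so p-values measure the spread between these 6 animals.

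Small leucine-rich proteoglycans are secreted proteins of the extracellular matrix. Their leucine-rich repeats form a curved surface that binds collagen fibrils and sets fibril spacing and thickness, and several of them also bind growth factors such as transforming growth factor beta. Decorin (Dcn), biglycan (Bgn) and asporin (Aspn) form class I, lumican (Lum), fibromodulin (Fmod) and Prelp form class II, osteoglycin (Ogn) belongs to class III, and podocan stands in a class of its own with its close relative Podnl1. In fat these genes are mostly transcribed by stromal cells, fibroblasts and adipocyte precursors rather than by adipocytes, so that in a whole fat pad fewer such cells and less RNA per cell cannot be told apart.

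After 24 h of cold, the mean level of Podn was 49.4% lower in the cold mice than in the control mice, while the most abundant relative, Dcn, had nearly the same mean in both groups. Podn had 105, 101 and 95.8 CPM in cold 7, cold 12 and cold 16, against 209, 172 and 216 CPM in ctrl 5, ctrl 6 and ctrl 10. Every cold mouse lay below every control mouse. The means were 101 ± 4.54 CPM in cold and 199 ± 23.9 CPM in ctrl (SD, n = 3 each), a ratio of 0.506. The fitted log2 difference, cold minus ctrl, was -0.95 ± 0.15 (SE), at rank 38 from the lowest of 9772 tested genes. The cold mice differed among themselves by a coefficient of variation of 4.51%, less than the 10.8% that counting alone gives at their 75 to 121 reads.

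**Figure D1:**
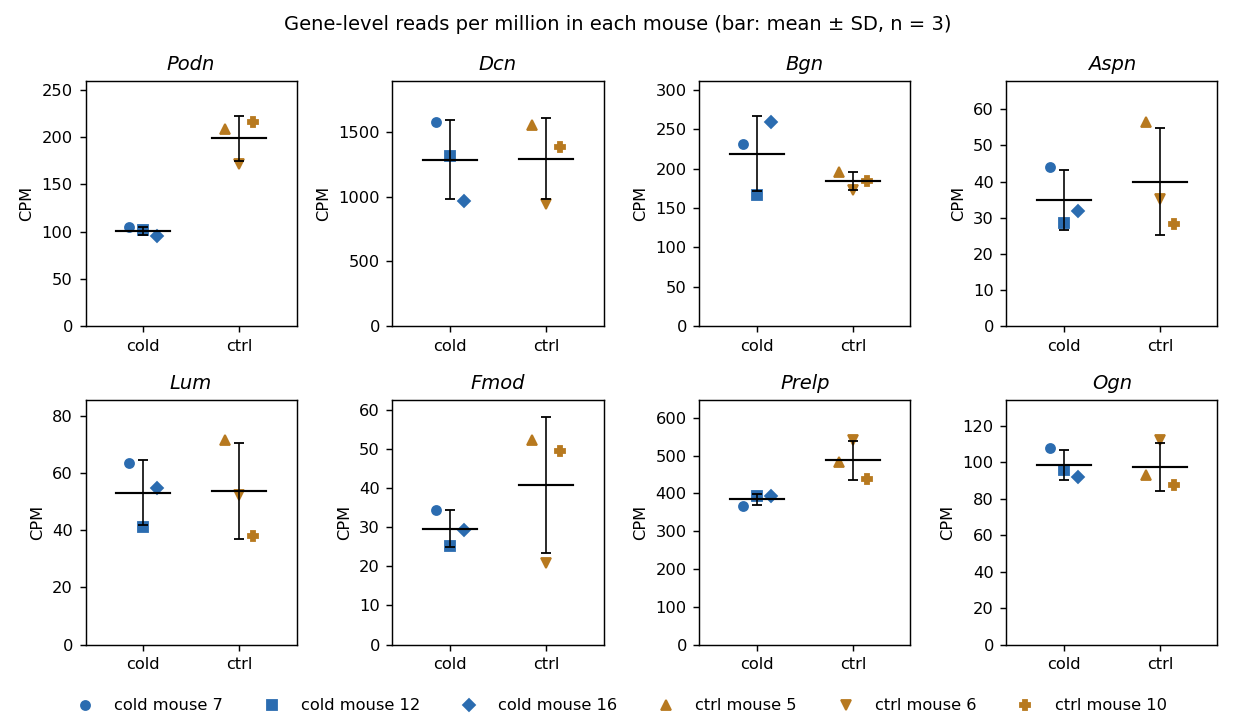
Gene-level CPM (vertical axes, starting at 0, 1 scale per gene) of the 8 proteoglycan genes in each cold and ctrl mouse, with the mean and SD of 3 mice as lines. Podn and Prelp have all cold mice below all ctrl mice (Podn 95.8 to 105 CPM in cold and 172 to 216 CPM in ctrl, Prelp 367 to 393 CPM in cold and 438 to 541 CPM in ctrl), and the groups overlap in the other 6 genes.

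All 8 genes passed the filter on low counts. By edgeR's quasi-likelihood test with Benjamini-Hochberg adjustment over all tested genes, 0.655% of genes passed an adjusted p of 0.05, and 0.113% did so with a lower level in cold. Of the 8 members only Podn did, which is the reason it was chosen, and nothing is read from that count. Every cold mouse lay below every control mouse in 7.7% of tested genes, and above in 5.96%, against 2 members below (Podn and Prelp) and 0 above. The median log2 fold change was -0.09 over the 8 members and -0.01 over the 7 without Podn, beside 0.01 over all tested genes.

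**Figure D2:**
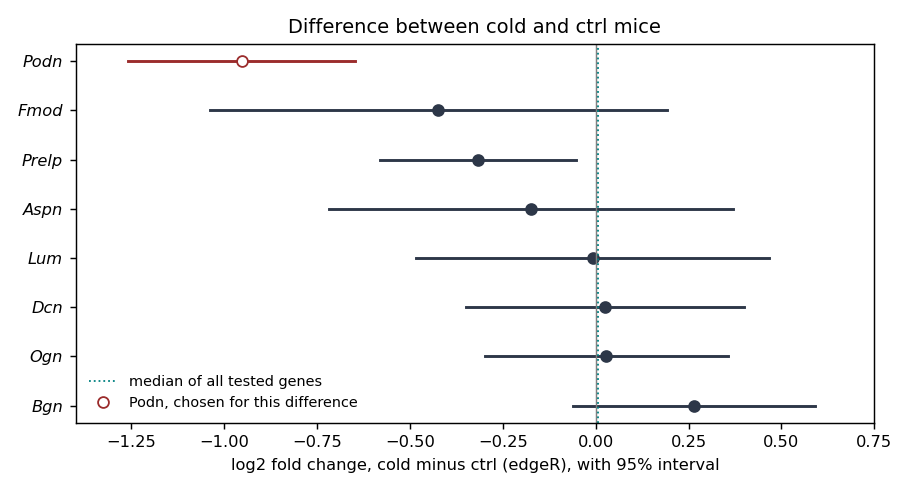
Log2 fold change of each gene, cold minus ctrl, from edgeR (points) with its 95% interval (lines); the vertical lines mark 0 and the median of all tested genes. Podn (open point, -0.95) was chosen for this difference; the interval of Prelp lies below 0 before adjustment (-0.58 to -0.05), and those of the other 6 genes include 0.

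The annotation holds 8 Podn transcripts, 5 of which had reads. The Podn gene lies on the reverse strand of chromosome 4 (ENSMUSG00000028600.15, 108014791 to 108096445, GRCm38). Podn-203, the most-read transcript with 13 exons, had 64.7, 56.9 and 54.8 CPM in cold 7, cold 12 and cold 16, against 126, 111 and 130 CPM in ctrl 5, ctrl 6 and ctrl 10. It took 58.5% ± 2.99 of the gene's reads in cold and 61.7% ± 2.70 in ctrl (SD, n = 3 each). Every cold mouse was below every control mouse, as in the gene-level values by which Podn was chosen, so nothing is read from that separation.

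Podn-201 codes for the same bases (1833 coding bases) but starts 64355 bases upstream of Podn-203, inside the span of the neighbouring gene Scp2, a sterol carrier protein gene on the same strand. It had 16.5, 8.37 and 10.2 CPM in the cold mice 7, 12 and 16, against 24.5, 22.4 and 37.9 CPM in the control mice 5, 6 and 10, again without overlap. No exonic base of Podn is shared with Scp2, whose own level was 1178 ± 175 CPM in cold and 1287 ± 65.4 CPM in ctrl (SD, n = 3 each, edgeR adjusted p = 0.917). With Podn-201 left out of the gene's sum, a setting chosen after seeing the data, the log2 difference of Podn was -0.90.

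The other Podn transcripts had fewer reads. Podn-202, which lies within the bases of Podn-203 and starts 137 bases further downstream, had 6.92 ± 3.11 CPM in cold and 14.6 ± 7.74 CPM in ctrl. Podn-207, a shorter coding model with 1227 coding bases and no base of its own, had 12.7 ± 5.52 CPM in cold and 19.9 ± 2.64 CPM in ctrl, and its lowest cold mouse was cold 7 at 6.88 CPM. Podn-206, a processed transcript without annotated coding sequence and with 665 bases found in no other Podn transcript with reads, had 10.4 ± 1.93 CPM in cold and 13.9 ± 3.31 CPM in ctrl (SD, n = 3 each). Groups overlapped for Podn-202 and Podn-206 and did not for Podn-207 (6.88 to 17.9 CPM in cold, 18.1 to 22.9 CPM in ctrl). The margin of Podn-207, between 14 reads in cold 16 and 17 reads in ctrl 5, was under the 1.28 CPM of 1 read in cold 16. The share of all transcripts separated in this way was not counted, and nothing is read from these separations. The share of Podn-206 was 10.3% ± 1.81 of Podn reads in cold and 6.93% ± 1.09 in ctrl, on 29 and 46 reads. No gene, Podn included, passed the test of transcript usage described with Dcn. The fitted log2 differences were -1.03 ± 0.18 for Podn-203, -1.30 ± 0.34 for Podn-201, -0.89 ± 0.45 for Podn-202, -0.60 ± 0.33 for Podn-207 and -0.32 ± 0.36 for Podn-206 (SE). All 5 were negative, with errors of 0.33 or more for all but Podn-203, and how reads that match several of these models were counted is not given in the sources used here.

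**Figure D3:**
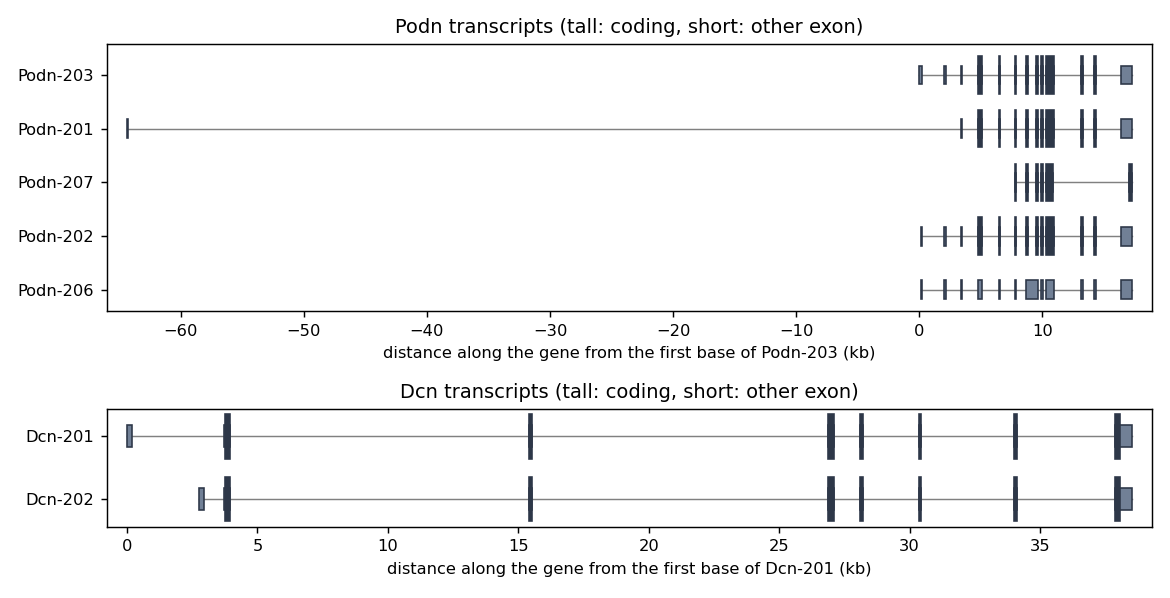
Exons of the Podn and Dcn transcripts described, drawn to scale against the distance in kb from the first base of Podn-203 (top) and Dcn-201 (bottom), with tall boxes for coding parts. Podn-201 differs by a far upstream first exon, and Dcn-201 and Dcn-202 differ only in their first exon.

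The stretch of genome before a transcription start holds the core promoter. The 100 bases just before the start of the most-read transcript, or before the RefSeq start where that lies further upstream, are shown for Podn and Prelp, the genes with every cold mouse below every control mouse, and for Bgn and Ogn, which were not lower, so that the starts can be compared. They run 5′ to 3′ on the gene's strand, come from RefSeq (GRCm38.p6), and carry capitals where the GC box GGGCGG or its reverse complement, the letters of a site for Sp1-type factors, was matched.
Podn, chr4:108032091-108032190, reverse strand: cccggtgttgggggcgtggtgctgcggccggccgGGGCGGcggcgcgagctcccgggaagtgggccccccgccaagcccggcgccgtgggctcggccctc
Prelp, chr1:133921415-133921514, reverse strand: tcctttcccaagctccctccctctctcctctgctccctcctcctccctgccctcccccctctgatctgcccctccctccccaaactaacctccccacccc
Bgn, chrX:73483501-73483600, forward strand: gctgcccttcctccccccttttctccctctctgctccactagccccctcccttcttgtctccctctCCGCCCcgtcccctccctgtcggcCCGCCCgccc
Ogn, chr13:49607915-49608014, forward strand: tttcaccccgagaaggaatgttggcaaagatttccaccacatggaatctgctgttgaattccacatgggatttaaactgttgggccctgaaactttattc
G and C made up 84.0% of the Podn stretch, 66.0% of that of Prelp, 71.0% of that of Bgn and 43.0% of that of Ogn.

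RefSeq promoter windows (250 bases before to 50 after a start) were found for 6 of the 8 genes, 7 windows in all, with a pair for Podn. Dcn and Lum had no entry. On either strand, the GC box was in 2 of the 7 windows (1 of Podn and that of Bgn) and in 35.7% of all 32851 windows. The CCAAT box (CCAAT) was in 3 windows, those of Prelp, Fmod and Aspn, and in 37.4% of all. The TATA box (TATAAA) was in 2, those of Aspn and Ogn, and in 13.6% of all. The AP-1 site TGACTCA and the cAMP response element TGACGTCA were in 0 of the 7, and in 5.20% and 1.79% of all windows. The letters of none of these motifs contain another, and a match is a match of letters only.

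In class I, Dcn, the decorin gene, was the member with the highest level and showed no shift between the groups. Dcn (ENSMUSG00000019929.16, chromosome 10, 97479609 to 97518143, forward strand) had 1579, 1318 and 964 CPM in cold 7, cold 12 and cold 16, against 1553, 944 and 1381 CPM in ctrl 5, ctrl 6 and ctrl 10. Each group held 1 low mouse, cold 16 and ctrl 6, and the groups overlapped fully. Means were 1287 ± 308 CPM in cold and 1293 ± 314 CPM in ctrl (SD, n = 3 each). The log2 difference was 0.03 ± 0.18 (SE) with a 95% interval of -0.35 to 0.40 (edgeR adjusted p = 0.987). The spread between mice was 24.0% in cold and 24.3% in ctrl, against 3.07% and 2.66% from counting alone. Mouse, dissection and library cannot be told apart in that spread.

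Reads of Dcn were assigned in nearly equal parts to a pair of transcript models with different starts. How reads that match both models were counted is not given in the sources used here. The shares below are therefore those of the deposited counts, and the use of each start was not tested. Dcn-201 and Dcn-202 share 7 of 8 exons, the same coding bases (1062) and the same length (1758 bases), and Dcn-202 starts 2758 bases further downstream. Dcn-201 took 56.9%, 55.3% and 53.0% of Dcn reads in cold 7, cold 12 and cold 16, against 52.9%, 54.7% and 55.4% in ctrl 5, ctrl 6 and ctrl 10. Dcn-202 took nearly all the rest, 44.8% ± 2.05 in cold and 45.4% ± 1.22 in ctrl (SD, n = 3 each), and retained-intron models had at most 4 reads in a library. Transcript usage, tested with diffSpliceDGE of edgeR, did not pass for Dcn (adjusted p = 1.000), with log2 usage changes of 0.02 and -0.02 for these transcripts. By that test 0% of 2624 genes passed over the whole data (25 at an unadjusted p under 0.05), so that it had little to call anywhere. At the transcript level 0.381% of 12325 transcripts passed, 0.0568% with a lower level in cold, and Podn-203 was the only member transcript among them, from which nothing is read. Dcn-201 differed by 0.06 ± 0.19 and Dcn-202 by -0.01 ± 0.18 on the log2 scale (SE; edgeR adjusted p = 0.981 and 0.998).

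**Figure D4:**
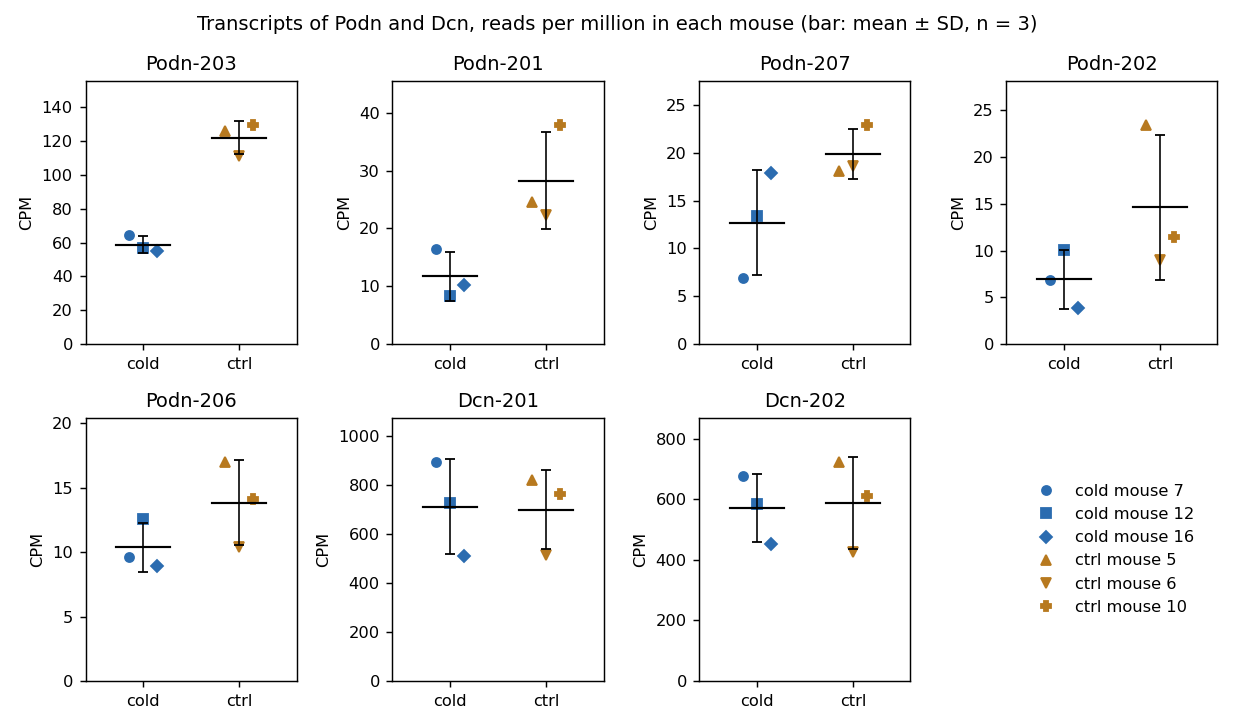
CPM (vertical axes, starting at 0) of the 5 Podn transcripts and the main Dcn transcripts in each cold and ctrl mouse, with the mean and SD of 3 mice as lines. Podn-203, Podn-201 and Podn-207 have all cold mice below all ctrl mice, while Dcn-201 and Dcn-202 overlap fully. For Podn-207 the margin (17.9 CPM in cold 16, 18.1 CPM in ctrl 5) is under the 1.28 CPM of 1 read in cold 16.

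Bgn, biglycan, a matrix proteoglycan that also acts as a danger signal on Toll-like receptors when set free, had the highest log2 fold change of the 8 with all mice, but not without cold 16 (0.13, against 0.20 for Dcn). Bgn (ENSMUSG00000031375.17, chromosome X, 73483602 to 73495933, forward strand) had 232, 166 and 259 CPM in cold 7, cold 12 and cold 16, against 195, 173 and 184 CPM in ctrl 5, ctrl 6 and ctrl 10. Cold 12 was the lowest of all 6 mice and the other cold mice were the highest, so the groups overlapped. The means of 219 ± 47.9 CPM in cold and 184 ± 11.0 CPM in ctrl (SD, n = 3 each) gave a log2 difference of 0.26 ± 0.16 (SE), with a 95% interval of -0.06 to 0.59 (edgeR adjusted p = 0.722). Bgn-201 held 97.4% ± 1.23 of the reads in cold and 97.6% ± 1.65 in ctrl.

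Aspn, asporin, which binds collagen and restrains transforming growth factor beta, had few reads. Aspn (ENSMUSG00000021388.14, chromosome 13, 49544443 to 49567565, forward strand) had 44.1, 28.5 and 31.9 CPM in cold 7, cold 12 and cold 16, against 56.5, 35.1 and 28.2 CPM in ctrl 5, ctrl 6 and ctrl 10. The log2 difference of -0.17 ± 0.26 (SE) had an interval of -0.72 to 0.37 (edgeR adjusted p = 0.926). At 25 to 53 reads per library, counting alone gives 18.3% in cold and 15.4% in ctrl. Aspn-201 took 91.6% ± 4.26 of Aspn reads in cold and 91.9% ± 7.53 in ctrl (SD, n = 3 each).

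In class II, Prelp, a proteoglycan that links basement membranes to collagen of the connective tissue, was lower in each cold mouse without passing the test. Prelp (ENSMUSG00000041577.5, chromosome 1, 133910304 to 133921414, reverse strand) had 367, 392 and 393 CPM in cold 7, cold 12 and cold 16, against 484, 541 and 438 CPM in ctrl 5, ctrl 6 and ctrl 10. The groups did not overlap, and the cold mice lay close together. Means were 384 ± 15.1 CPM in cold and 487 ± 51.5 CPM in ctrl (SD, n = 3 each), a ratio of 0.788. The log2 difference was -0.32 ± 0.13 (SE), with an unadjusted p of 0.0209 and an adjusted p of 0.464 by edgeR, and 7.7% of all tested genes show the same separation. In the X2 files alone the groups overlapped, with 446 CPM in cold 16 and 385 CPM in ctrl 10. An antisense gene, Gm15851, shares 350 exonic bases with Prelp but had 8 reads over the 6 mice.

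Fmod, fibromodulin, a collagen-binding proteoglycan that guides fibril assembly and crosslinking, had the lowest level per kb of the 8. Fmod (ENSMUSG00000041559.7, chromosome 1, 134037254 to 134048277, forward strand) had 34.5, 25.2 and 29.4 CPM in cold 7, cold 12 and cold 16, against 52.3, 20.9 and 49.4 CPM in ctrl 5, ctrl 6 and ctrl 10. Ctrl 6 was the lowest of all mice, and the other control mice were above every cold mouse. The log2 difference was -0.42 ± 0.29 (SE), with an interval of -1.04 to 0.19 (edgeR adjusted p = 0.788). Without ctrl 6 it was -0.78, and it did not pass then either (edgeR adjusted p = 0.214). Without ctrl 5, and likewise without ctrl 10, it was -0.23.

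Lum, lumican, a regulator of fibril thickness known from the cornea, lies on chromosome 10 (ENSMUSG00000036446.5, 97565128 to 97572703, forward strand). It had 63.4, 41.1 and 54.9 CPM in cold 7, cold 12 and cold 16, against 71.5, 52.3 and 37.9 CPM in ctrl 5, ctrl 6 and ctrl 10. Both groups spanned nearly the same range. The log2 difference was -0.01 ± 0.23 (SE), with an interval of -0.48 to 0.47 (edgeR adjusted p = 0.996).

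Ogn, osteoglycin, the class III member, also known as mimecan, had a small spread between mice. Ogn (ENSMUSG00000021390.6, chromosome 13, 49608046 to 49624501, forward strand) had 108, 95.6 and 92.0 CPM in cold 7, cold 12 and cold 16, against 92.8, 112 and 87.4 CPM in ctrl 5, ctrl 6 and ctrl 10. The spread of 8.28% in cold and 13.3% in ctrl was near what counting alone gives (10.9% and 9.71%). Its log2 difference of 0.03 ± 0.16 (SE) had an interval of -0.30 to 0.36 (edgeR adjusted p = 0.983).

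Levels of different genes were set side by side per kb of the read-weighted transcript length. As whole cDNA molecules were read, this division is a choice, and distances between genes, and in part their order, depend on it. Without it, the mean over the 6 mice was 1290 CPM for Dcn and 436 CPM for Prelp. Over the 6 mice, mean CPM per kb was 732 for Dcn, 121 for Prelp, 84.5 for Bgn, 50.9 for Podn, 38.1 for Ogn, 21.9 for Lum, 16.2 for Aspn and 11.3 for Fmod. Dcn stood above Prelp in every mouse, and Ogn (34.0 to 43.6 CPM per kb) above Lum (15.5 to 29.2). The other neighbours had overlapping ranges over the 6 mice. Within each mouse, per kb, Prelp was still above Bgn, Bgn above Podn and Lum above Aspn in all 6. Podn and Ogn, and Aspn and Fmod, changed places between mice. Without the division, Podn was above Bgn in ctrl 5 (209 against 195 CPM) and in ctrl 10 (216 against 184 CPM). The place of Bgn above Podn in these mice thus depends on the division by length. Per kb, the place of Podn differed between the groups. Podn had 32.5 to 35.6 CPM per kb in cold, below the 35.8 to 41.9 of Ogn. In ctrl it had 58.3 to 73.5, above the 34.0 to 43.6 of Ogn. In CPM, not divided by length, Podn (95.8 to 105) and Ogn (92.0 to 108) overlapped in cold. There Podn was below Ogn only in cold 7, so its place below Ogn in cold depends on the division by length. In ctrl, Podn (172 to 216 CPM) was above Ogn (87.4 to 112 CPM) without the division as well.

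The 8 genes together took 2531, 2169 and 1921 CPM in cold 7, cold 12 and cold 16, against 2714, 2049 and 2423 CPM in ctrl 5, ctrl 6 and ctrl 10. The sums overlapped, with 2207 ± 307 CPM in cold and 2395 ± 333 CPM in ctrl (SD, n = 3 each). Within the sum, Podn made up 4.14%, 4.68% and 4.99% in the cold mice 7, 12 and 16, against 7.70%, 8.38% and 8.93% in the control mice 5, 6 and 10. Dcn made up 57.8% ± 6.62 in cold and 53.4% ± 6.39 in ctrl, and Bgn 10.1% ± 3.03 in cold and 7.75% ± 0.64 in ctrl. Without Podn the sum was 2106 ± 303 CPM in cold and 2196 ± 314 CPM in ctrl.

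Of the members, 3 pairs lie near each other in the genome: Dcn and Lum on chromosome 10 (47.0 kb apart), Prelp and Fmod on chromosome 1 (116 kb apart) and Aspn and Ogn on chromosome 13 (40.5 kb apart). Likeness of their profiles was measured as the root mean square difference between log2 CPM values over the 6 mice, each centred on its gene's mean. It was 0.39 between Dcn and Lum, 0.50 between Prelp and Fmod and 0.34 between Aspn and Ogn. The closest pair of all was Lum and Aspn at 0.13, which lie on different chromosomes and were both highest in ctrl 5 and lowest in ctrl 10. Podn was nearest to Prelp (0.37) and farthest from Bgn (0.63).

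**Figure D5:**
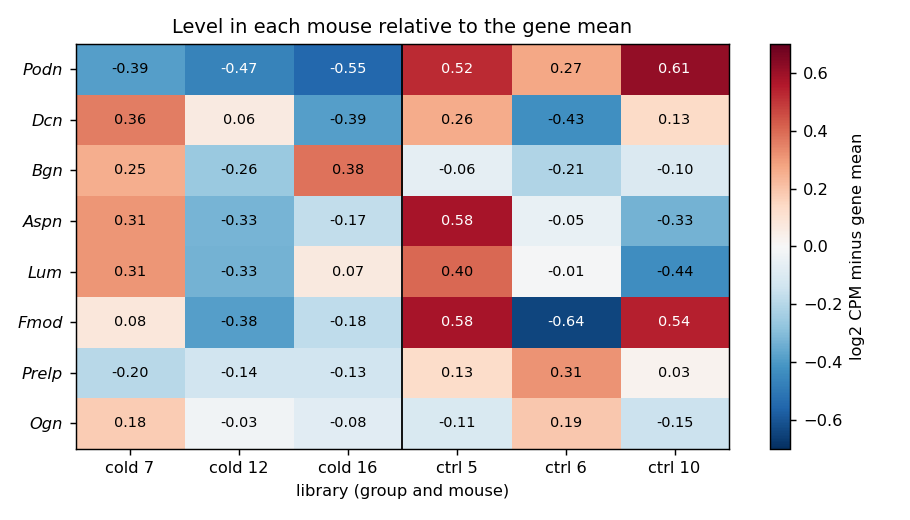
Log2 CPM of each gene in each mouse minus the gene's mean over the 6 mice (colour and printed value; cold mice left of the line). Podn and Prelp are negative in all cold mice and positive in all ctrl mice; Dcn, Aspn, Lum and Fmod are above their mean in cold 7 and ctrl 5.

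Among 6922 other tested genes with a mean of at least 20 CPM, the 5 profiles closest to Podn were those of Asah2, Atp2c1, Col6a6, Gm48632 and Pola2, at 0.09 to 0.18, where the median gene was at 0.52. Since Podn was chosen for its difference between the groups, these are genes with a like difference. Asah2, a neutral ceramidase, had 14.5 ± 1.90 CPM in cold and 31.1 ± 2.89 CPM in ctrl. Atp2c1, a Golgi calcium and manganese pump, had 28.2 ± 2.40 CPM in cold and 48.0 ± 4.14 CPM in ctrl. Col6a6, a chain of collagen VI, had 18.7 ± 0.94 CPM in cold and 40.0 ± 6.03 CPM in ctrl (SD, n = 3 each). Nearest to Dcn were Eif2b1 (0.07) and Larp7 (0.08), to Lum Mfap1a (0.07) and Baiap2 (0.08), to Bgn Mxra7 (0.06) and Nav1 (0.06), and to Fmod Txnip (0.13) and Cdc23 (0.14). Prelp was nearest to Hnrnpl (0.04) and Dhx40 (0.05), Ogn to Psmb5 (0.02) and Commd3 (0.03), and Aspn to C1galt1 (0.11) and Cep57 (0.11). The median gene was at 0.36 from Dcn, 0.37 from Lum, 0.32 from Bgn, 0.50 from Fmod, 0.28 from Prelp, 0.25 from Ogn and 0.39 from Aspn. The measure is not scaled by spread, so a gene with little spread lies close to many genes. The values of the neighbouring pairs above are to be read beside these medians.

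The remaining relatives were rare in this tissue. Of 12 other leucine-rich proteoglycan and related genes, 2 had enough reads for the test, 0 passed and 1 (Kera, keratocan of the cornea) had no reads in any mouse. Ecm2, a matrix protein gene next to Aspn, had 24.2 ± 6.62 CPM in cold and 18.9 ± 10.7 CPM in ctrl (edgeR adjusted p = 0.838). Tsku, tsukushi, a secreted modulator of growth factor signals, had 29.4 ± 16.0 CPM in cold and 16.2 ± 5.92 CPM in ctrl (SD, n = 3 each, edgeR adjusted p = 0.386), with overlap. Podnl1, the close relative of Podn, had 2 reads in cold and 0 in ctrl. Omd, osteomodulin, had 12 reads in cold and 5 in ctrl.

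The partners of these proteoglycans showed no gene past the threshold. Only 0.655% of all tested genes passed it, so counts of 0 in short lists, here and in the other lists, say little. Groups without overlap, named in these lists, occur in 5.96% (cold above) and 7.7% (cold below) of all tested genes. Of 11 tested collagen genes whose products they bind, 0 passed in either direction, with a median log2 fold change of 0.14. Col6a2, a chain of collagen VI, had 162 ± 29.9 CPM in cold and 137 ± 14.3 CPM in ctrl (SD, n = 3 each, edgeR adjusted p = 0.747). Col5a3, a chain of collagen V, had 151 ± 55.7 CPM in cold and 121 ± 12.2 CPM in ctrl, and Col14a1, a fibril-associated collagen, 23.7 ± 3.36 CPM in cold and 19.1 ± 3.65 CPM in ctrl, without overlap (edgeR adjusted p = 0.836). The margin of Col14a1, 21.7 CPM in cold 16 against 21.3 CPM in ctrl 5, was under the 1.28 CPM of 1 read in cold 16. These collagens were named by smallest p, and not all of the list leaned upward. Log2 fold changes were -0.06 for Col1a1, -0.07 for Col1a2, -0.09 for Col3a1, -0.10 for Col6a1 and -0.08 for Col6a3. The other tested collagens were above 0.

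Enzymes that build the sugar chains were also without a call. Of 22 tested genes of glycosaminoglycan chain synthesis 0 passed, 2 had an unadjusted p under 0.05, both higher, beside 824 of all 9772 tested genes, and the median was 0.09. Chst12, a chondroitin sulfotransferase, had 85.6 ± 9.37 CPM in cold and 60.1 ± 5.19 CPM in ctrl (edgeR adjusted p = 0.268), and Extl2, a glycosyltransferase, had 17.7 ± 4.27 CPM in cold and 11.3 ± 1.94 CPM in ctrl (SD, n = 3 each, edgeR adjusted p = 0.557). In both, 2 of the 22, every cold mouse was above every control mouse, beside 5.96% of all tested genes. Of 5 tested genes of keratan sulfate synthesis 0 passed, with a median of -0.01. B4galt4, a galactosyltransferase of that chain, had 6.60 ± 2.64 CPM in cold and 15.9 ± 0.92 CPM in ctrl, without overlap (edgeR adjusted p = 0.203).

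Of 8 tested proteases and protease cofactors 0 passed, with a median of -0.06. Adamts5, an aggrecanase that also cleaves small proteoglycans, had 173 ± 17.7 CPM in cold and 197 ± 44.9 CPM in ctrl. Of 16 tested growth factors and receptors that these proteins bind 0 passed, with a median of -0.01. Tgfbr3, betaglycan, itself a membrane proteoglycan that presents transforming growth factor beta, had 138 ± 15.0 CPM in cold and 177 ± 12.1 CPM in ctrl, without overlap (edgeR adjusted p = 0.532), and Tgfbr2, the signalling receptor, 71.7 ± 18.7 CPM in cold and 56.6 ± 10.3 CPM in ctrl (SD, n = 3 each, edgeR adjusted p = 0.673). Of 16 tested other extracellular and membrane proteoglycans, Tgfbr3 among them, 0 passed, with a median of 0.01. Vcan, versican, had 10.0 ± 2.16 CPM in cold and 15.2 ± 7.04 CPM in ctrl.

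Cell type markers give the setting of these values. The tissue label held, with all 10 markers of mature adipocytes tested and their sum at 67462 to 75343 CPM in cold and 71691 to 77182 CPM in ctrl. Of these 10, 1 rose and 0 fell: Pnpla2, the adipose triglyceride lipase, had 1912 ± 91.8 CPM in cold and 1243 ± 90.0 CPM in ctrl (SD, n = 3 each, edgeR adjusted p = 0.00971). Without passing, every cold mouse was above every control mouse for Lep and Fabp4 and below for Cfd, Plin1 and Car3. With Pnpla2, 3 of the 10 lay above in this way and 3 below, beside 5.96% and 7.7% of all tested genes. Cfd, the adipsin gene, had 10879 ± 760 CPM in cold and 15536 ± 914 CPM in ctrl (edgeR adjusted p = 0.0857). Of 15 tested markers of fibroblasts and adipocyte precursors 0 passed, with a median log2 fold change of 0.08 and none at 0, and their sum was 8741 to 9707 CPM in cold and 9278 to 11247 CPM in ctrl. Most of that sum was Gsn, gelsolin, an actin-severing protein, with 7076 ± 592 CPM in cold and 8368 ± 726 CPM in ctrl and every cold mouse below every control mouse (edgeR adjusted p = 0.718). Pdgfra, the defining receptor of these cells, had 28.7 ± 3.60 CPM in cold and 21.0 ± 6.77 CPM in ctrl (SD, n = 3 each, edgeR adjusted p = 0.653). Ly6c1, with the smallest p of this list, had 285 ± 53.9 CPM in cold and 219 ± 42.0 CPM in ctrl, with overlap (edgeR adjusted p = 0.387). Markers of macrophages (8), endothelium (8) and pericytes or smooth muscle (7) had 0 tested members past the threshold, and none of the 8 lymphocyte markers had enough reads for the test. At an unadjusted p under 0.05 by edgeR stood 4 of the 7 pericyte or smooth muscle markers, 2 higher and 2 lower. So did 1 endothelial marker, lower, 1 of the 15 fibroblast and precursor markers (Ly6c1, higher) and 0 macrophage markers. Of the 10 mature adipocyte markers 4 did, 3 higher and 1 lower, beside 824 of all 9772 tested genes.

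A pair of other lists moved between mice. Markers of simple epithelium, which the epididymis next to this pad contains, summed to 127 to 232 CPM in cold and 20.2 to 44.8 CPM in ctrl, and all 5 tested members rose (edgeR, median log2 fold change 3.14). Epcam, the defining adhesion molecule of epithelium, had 12.4, 45.3 and 33.2 CPM in cold 7, cold 12 and cold 16, against 4.27, 0 and 0 CPM in ctrl 5, ctrl 6 and ctrl 10, and Cldn4 was at 0 in all mice but cold 12. The part of these cells in the difference of Podn was not tested. Mesothelial markers, of the cells that cover the pad, summed to 262, 147 and 137 CPM in cold 7, cold 12 and cold 16, against 351, 134 and 307 CPM in ctrl 5, ctrl 6 and ctrl 10, and 0 of 7 tested passed. Of these 7, 3 had an unadjusted p under 0.05 by edgeR, all lower in cold. The 3 mice with the highest mesothelial sum (cold 7, ctrl 5 and ctrl 10) were also the 3 with the highest Dcn. The same 3 mice had the highest sums of the fibroblast and precursor markers (9707 CPM in cold 7, 10811 and 11247 CPM in ctrl 5 and ctrl 10, at most 9295 CPM in the others). Gsn alone gave 6393 to 9013 CPM of these sums, so their order does not stand for the other markers of that list. These 3 mice also had the highest sums of the collagen list (2671 CPM in cold 7, 2372 and 2608 CPM in ctrl 5 and ctrl 10, at most 2264 CPM in the others) and of the macrophage markers (1852 CPM in cold 7, 1635 and 1438 CPM in ctrl 5 and ctrl 10, at most 1376 CPM in the others). Sums of some other lists did not share this order. Endothelial markers were lowest in cold 7 (677 CPM). Pericyte and smooth muscle markers were highest in cold 16 (724 CPM), and mature adipocyte markers in ctrl 6 (77182 CPM). The part of any of these cell types in the level of Dcn was not tested.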

How the data were processed

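Per the labels' protocols, direct cDNA libraries were made from 100 ng of poly-A RNA. The deposited files give raw counts of reads for each transcript, as the authors made them, in 2 files per mouse (X1 and X2). Reads were aligned with minimap2 to GRCm38, per the submitters' processing notes. The counting tool, and how it treated strand and ambiguous reads, is not given in the sources used here. The X1 and X2 counts differed by about sampling noise (chi-square per degree of freedom 1.02 to 1.06) and were summed, giving 3 mice per group. Version suffixes aside, 61538 transcript identifiers matched GENCODE M21. Unmatched ones held 0.139% to 0.165% of reads and entered only the transcript tests. Of the listed genes, Wisp1 was matched by a RefSeq synonym and Chst6 was not matched.

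The tests used edgeR 4.0.16 in R 4.3.3 (TMM, filterByExpr with a minimum count of 10, quasi-likelihood F test, SE derived from F), and diffSpliceDGE for transcript usage (Simes p per gene). DESeq2 1.42.0 and limma 3.58.1 (voom) were alternatives. Scripts were tested on simulated data. Intervals are at 95%. Named genes are the members, the profiles most like each (5 for Podn, 2 for the others), and up to 4 genes per list with the smallest p. Kera, Podnl1, Omd, Cldn4, Plin1, Car3, Col1a1, Col1a2, Col3a1, Col6a1 and Col6a3 were named after their values were seen. Members and lists were chosen with earlier results of these data known.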

Additional observations from a re-analysis of the deposited data

How the results depend on the processing

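No paired analysis was possible because the cold and control mice share no mouse numbers. Podn was lower in cold under all 17 alternatives, by -1.06 to -0.85 on the log2 scale. These reuse the values by which Podn was chosen, so they describe the processing and are no support for the difference. Podn-203 no longer passed in the X2 files or without cold 12 (log2 -0.990 and -0.998). Podn-201, which did not pass otherwise, passed with no filter and without cold 7 (log2 -1.37 and -1.61). For the same reason nothing is read from these calls. Of 64 genes called, the count was 371 with no filter, 38 in the X2 files, and 35 to 199 with a mouse left out (35 without cold 12, 199 without cold 7, 106 without ctrl 5). Of 47 transcripts, it was 260 with no filter, 30 in the X1 and 26 in the X2 files, and 26 to 162 with a mouse left out (26 without cold 12, 162 without cold 7, 71 without cold 16 or ctrl 5). Of 0 genes with changed usage, it was 1 by the gene-level F test and 0 to 1 with a mouse left out (1 without cold 7). The cause was not tested.

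Members near 0 changed sign, none of them called in any setting. Lum had 0.0041 with limma-voom, 0.18 in the X2 files, 0.0054 from protein-coding transcripts and 0.00049 without retained-intron and decay transcripts. Ogn had -0.065 in the X1 files and Dcn -0.042 in the X2 files. Ogn-201 had -0.045 with no filter and -0.057 in the X1 files, and Dcn-201 had -0.011 with no filter. Lum-201 had 0.0018 with DESeq2, 0.012 with limma-voom and 0.19 in the X2 files, and Dcn-202 had 0.013 with limma-voom and 0.050 in the X1 files. With a mouse left out, values ran from -0.16 to 0.20 for Dcn, -0.20 to 0.21 for Lum, -0.051 to 0.15 for Ogn, -0.37 to 0.11 for Aspn, -0.34 to 0.11 for Aspn-201, -0.049 to 0.15 for Ogn-201, -0.20 to 0.21 for Lum-201, -0.16 to 0.25 for Dcn-201 and -0.20 to 0.15 for Dcn-202. Prelp (-0.46 to -0.14), Fmod (-0.78 to -0.23) and Bgn (0.13 to 0.44) kept their sign without passing in any setting. The log2 ratio of the summed level stayed between -0.23 and -0.02. Depth limits Fmod, Aspn and Lum most, at 23 to 70 reads per mouse.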
